A study of Mus musculus with 6 samples.

Results

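The genes described here encode the collagen receptor and CLEC-2 signalling module of megakaryocytes and platelets. They were chosen by symbol, as every array probe annotated to Gp6, Clec1b, Fcer1g, Mpig6b, Syk, Lyn, Lcp2, Lat, Plcg2 or Btk. Of these 10 genes 9 had a probe, 11 probes in all of the 24611 on the array, and 10 of the 11 were bright enough to test. Lyn, a Src family kinase that phosphorylates the receptors, had no annotated probe and was not analysed here.

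Transcripts were measured on 6 mouse Illumina bead arrays, 3 of SRF wild-type and 3 of SRF knockout cells, all from the strain C57BL/6. The cells were lineage-depleted bone marrow cells kept overnight with stem cell factor plus thrombopoietin, sorted for CD41 and c-kit as megakaryocyte progenitors, and cultured for 3 more days in thrombopoietin alone. Srf, the gene of serum response factor, was deleted by Cre recombinase under the promoter of the platelet granule gene Pf4, so deletion followed use of that promoter. The labels do not say whether the wild-type mice carried Cre, and give no age. Per the series design there were 3 mice per genotype, but no label ties a sample to an animal, so a p-value here reflects only the spread among these arrays. The small number of arrays limits the precision of every value below.

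Platelets sense exposed collagen through glycoprotein VI, and podoplanin through CLEC-2. Glycoprotein VI has no immunoreceptor tyrosine-based activation motif (ITAM) of its own and relies on that of the FcR gamma chain. CLEC-2 carries a shortened ITAM in its own tail. Src family kinases phosphorylate these motifs, the kinase Syk docks on them, and the adaptors LAT and SLP-76 then assemble a complex in which Btk helps to activate phospholipase C gamma. G6b-B, the product of Mpig6b, carries inhibitory motifs (ITIMs) and restrains both receptors.

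None of the module's genes passed the test between genotypes. Of the 9 genes, 0 passed limma's test at an adjusted p under 0.05, and 0 had an unadjusted p under 0.05. Over all 9403 tested probes 0.16% passed (15 probes, with 0.0213% higher and 0.138% lower in the knockout), and at an unadjusted p under 0.05 the share was 12.9% of 6869 genes. No module gene had wild-type and knockout arrays that lay apart without overlap, against 18.2% of all tested genes (18.9% of probes). By group mean 8 of the 9 were higher in the knockout and 1 lower, with a median difference of 0.13 on the log2 scale, beside 49% of all tested genes higher and a median of -0.0072. The count of higher genes was 6 of 9 and the median 0.026 without wild-type replicates 2 and 3, which stood apart in markers of other blood cells (45.9% of all tested genes were then higher). That fit, also given for single genes below, keeps only 1 wild-type array, so its signs rest on that array.

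Srf, measured as a check of the labels, lay at 12.31, 11.89 and 11.98 in the wild-type and 7.35, 7.56 and 7.20 in the knockout (probe ILMN_2769688), 25.8-fold lower in the latter (limma adjusted p = 5.4e-05). A second Srf probe, ILMN_1242533, was too dim to test. It read 7.76, 6.18 and 5.61 in the wild-type and 5.25, 5.12 and 5.05 in the knockout. All 11 megakaryocyte markers on the array (13 listed) were detected on every array. Among them Gp1bb, Ppbp and Itgb3 had the widest ranges, and the list's summed normalised intensity was 108224 to 129674 in the wild-type and 110998 to 120547 in the knockout. The single markers did not all hold steady. Ppbp, the brightest in the wild-type, was lower on every knockout array than on any wild-type array (limma adjusted p = 0.25). Itga2b, Gp1bb, Gp5 and Pf4 were higher on every knockout array (limma adjusted p 0.32 to 0.52), and the rest overlapped. Of all tested genes 18.2% had groups without overlap. Granulocyte markers (13 of 14 on the array detected, Mmp8 not) summed to 2252 to 57995 and 1967 to 29964, led by Mpo, Elane and Ctsg, and were high on wild-type replicates 2 and 3 and knockout replicate 1. Mast cell and basophil markers summed to 692 to 14924 and 774 to 980, led by Mcpt8, Cpa3 and Prss34, and were high on wild-type replicates 2 and 3 only. Of these 15, Mcpt4, Mcpt1, Mcpt2, Cma1, Tpsb2, Tpsab1, Mrgprb2 and Il4 were not detected on any array. Sums for monocytes and macrophages (Adgre1, Irf8 and Fcgr1 widest; 4 of 8 detected, not Ccr2, Cd14, Cx3cr1 and Ms4a7) were 334 to 705 and 319 to 401. Those for B cells (Cd79b, Vpreb1 and Ms4a1; 4 of 7) were 584 to 750 and 528 to 577, with Cd79a, Pax5 and Blnk undetected. Those for T and NK cells (Klrb1c alone of 8) were 301 to 379 and 322 to 340, with Cd3e, Cd3d and Cd3g undetected. Those for erythroid cells (Klf1, Aqp1 and Alas2; 4 of 7) were 959 to 2291 and 846 to 969, with Hba-a1, Slc4a1 and Ermap undetected. The monocyte and macrophage (567 and 705), B cell (750 and 638) and erythroid (2049 and 2291) sums were also highest on wild-type replicates 2 and 3. In such bulk samples a lower share of cells that make a transcript and less of it per cell cannot be told apart.

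The promoters of the 3 receptor genes used mainly by megakaryocytes and platelets are shown because the knockout removed a transcription factor that binds a known DNA motif, the CArG box. Each is the 250 bases before the gene's start, from RefSeq on GRCm38.p6: Gp6 at chr7:4397745-4397994 (minus strand), Clec1b at chr6:129397047-129397296 (plus strand) and Mpig6b at chr17:35066185-35066434 (minus strand). Capitals mark GATAA, the core motif of GATA factors, read on either strand (TTATC is its reverse complement).

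Gp6: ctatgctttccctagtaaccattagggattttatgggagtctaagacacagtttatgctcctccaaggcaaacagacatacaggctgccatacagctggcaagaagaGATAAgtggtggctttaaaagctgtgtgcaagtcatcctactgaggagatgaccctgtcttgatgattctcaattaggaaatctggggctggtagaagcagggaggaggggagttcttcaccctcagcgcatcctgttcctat

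Clec1b: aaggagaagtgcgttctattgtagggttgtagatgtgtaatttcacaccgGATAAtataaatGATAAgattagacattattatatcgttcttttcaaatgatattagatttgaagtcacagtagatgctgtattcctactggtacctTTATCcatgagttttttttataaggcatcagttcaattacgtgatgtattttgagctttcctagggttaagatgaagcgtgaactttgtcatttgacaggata

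Mpig6b: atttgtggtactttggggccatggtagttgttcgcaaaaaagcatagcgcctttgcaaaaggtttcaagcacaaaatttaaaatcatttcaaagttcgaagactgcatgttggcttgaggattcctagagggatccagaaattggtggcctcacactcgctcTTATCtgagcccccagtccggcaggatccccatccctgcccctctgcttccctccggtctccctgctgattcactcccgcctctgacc

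GATAA stood once in the Gp6 window, starting 143 bases before the gene's start, at 3 places in that of Clec1b (200, 188 and 103 bases before) and once in that of Mpig6b (88 bases before). RefSeq listed 10 promoters for the 9 genes, with a pair for Syk, and 6 of the 10 held GATAA in this window, against 22.6% of all 32851 promoters. The CArG box, searched on both strands, was in 0 of the 10 and in 1.47% of all promoters. Searched for comparison, the window of Srf itself held it 82 and 62 bases before the start, and that of Cnn2 56 bases before. The windows of Coro1a and Flna did not hold it. A match is a string of letters and not a measured binding site, and its absence says only that these letters are not in the window.

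Gp6, the collagen-binding receptor, varied most among the module's genes. Its normalised log2 intensity was 10.13, 9.17 and 9.30 in wild-type replicates 1 to 3 and 10.70, 9.85 and 9.42 in knockout replicates 1 to 3. The highest array of each group was its replicate 1, and the groups overlapped over most of their ranges. The means were 9.53 ± 0.52 and 9.99 ± 0.65 (SD, n = 3 each), and the difference of 0.46 (SE 0.37) had a limma adjusted p of 0.57 and a 95% interval of -0.40 to 1.31. On a linear scale this is 1.37-fold with an interval of 0.758-fold to 2.48-fold, so a change of 2-fold upward was not outside what the arrays allow. The standard error over 20 to 37 beads was 4.11% to 7.52% of the raw intensity on each array, while the pooled SD between arrays of 0.59 was at or above that of 96.6% of tested probes. Without wild-type replicates 2 and 3 the difference was -0.15, of opposite sign, with wild-type replicate 1 (10.13) as the only wild-type array. Leaving out 1 array at a time gave 0.10 (without knockout replicate 1) to 0.76 (without wild-type replicate 1).

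Clec1b, which encodes the podoplanin receptor CLEC-2, came nearest to the threshold. Probe ILMN_2749280 read 10.71, 10.84 and 11.02 in the wild-type and 11.50, 10.98 and 11.20 in the knockout. Wild-type replicate 3 exceeded only knockout replicate 2, so the groups overlapped by 1 array of each. The means were 10.85 ± 0.16 and 11.23 ± 0.26 (SD, n = 3 each), a difference of 0.37 (SE 0.18, limma adjusted p = 0.39) with a 95% interval of -0.041 to 0.78. The second probe, ILMN_2605372, was not detected on any array (detection p 0.354 to 0.730), and it gave no measure of the gene. The difference kept its sign in all 17 alternatives, between 0.23 and 0.52, including 0.52 without wild-type replicates 2 and 3. Those that changed only the filter, the replicate block or the variance model left it at 0.37 by construction. They could not have changed the sign.

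Fcer1g encodes the FcR gamma chain, the ITAM subunit shared by glycoprotein VI and the Fc receptors of mast cells and myeloid cells. Its log2 intensity was 13.66, 13.51 and 13.45 in the wild-type and 13.95, 13.73 and 13.65 in the knockout. Only wild-type replicate 1 lay above a knockout array, replicate 3, and by a margin of 0.01. The difference was 0.24 (SE 0.15, 95% interval -0.098 to 0.58, limma adjusted p = 0.46), or 1.18-fold, and it was 0.12 without wild-type replicates 2 and 3. It was 0.15 without knockout replicate 1 and 0.032 without all 3 of these arrays.

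Fcer1g also serves Fc receptors in other cells, whose markers are set beside it here without a test. Fcer1a and Ms4a2, the alpha and beta subunits of the high-affinity IgE receptor (named here after their values were seen), were detected on wild-type replicates 2 and 3 alone, Fcer1a at 7.64 and 7.82 and Ms4a2 at 7.86 and 7.94. On the same arrays Fcer1g had its 2 lowest values, and the granulocyte sums were 48632 and 57995. On knockout replicate 1, where the granulocyte sum was 29964, Fcer1g had its highest value, 13.95. The genes of the granulocyte list did not all peak on the same arrays. Mpo, Elane, Prtn3, Ctsg, Gfi1 and Csf3r were highest on wild-type replicates 2 and 3. S100a8, S100a9, Camp, Ngp, Ltf and Lcn2 were highest on knockout replicate 1. S100a8, for example, was at 13.23 there, against 10.87 and 11.20 on wild-type replicates 2 and 3. The part of those other cells in the level of Fcer1g was not tested.

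Mpig6b, the ITIM receptor of the module, lay at 10.96, 10.73 and 10.58 in the wild-type and 10.92, 10.91 and 10.84 in the knockout. The knockout arrays fell inside the wild-type range. The difference was 0.13 (SE 0.15, 95% interval -0.21 to 0.47, limma adjusted p = 0.70), and it was -0.067 without wild-type replicates 2 and 3.

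**Figure D1:**
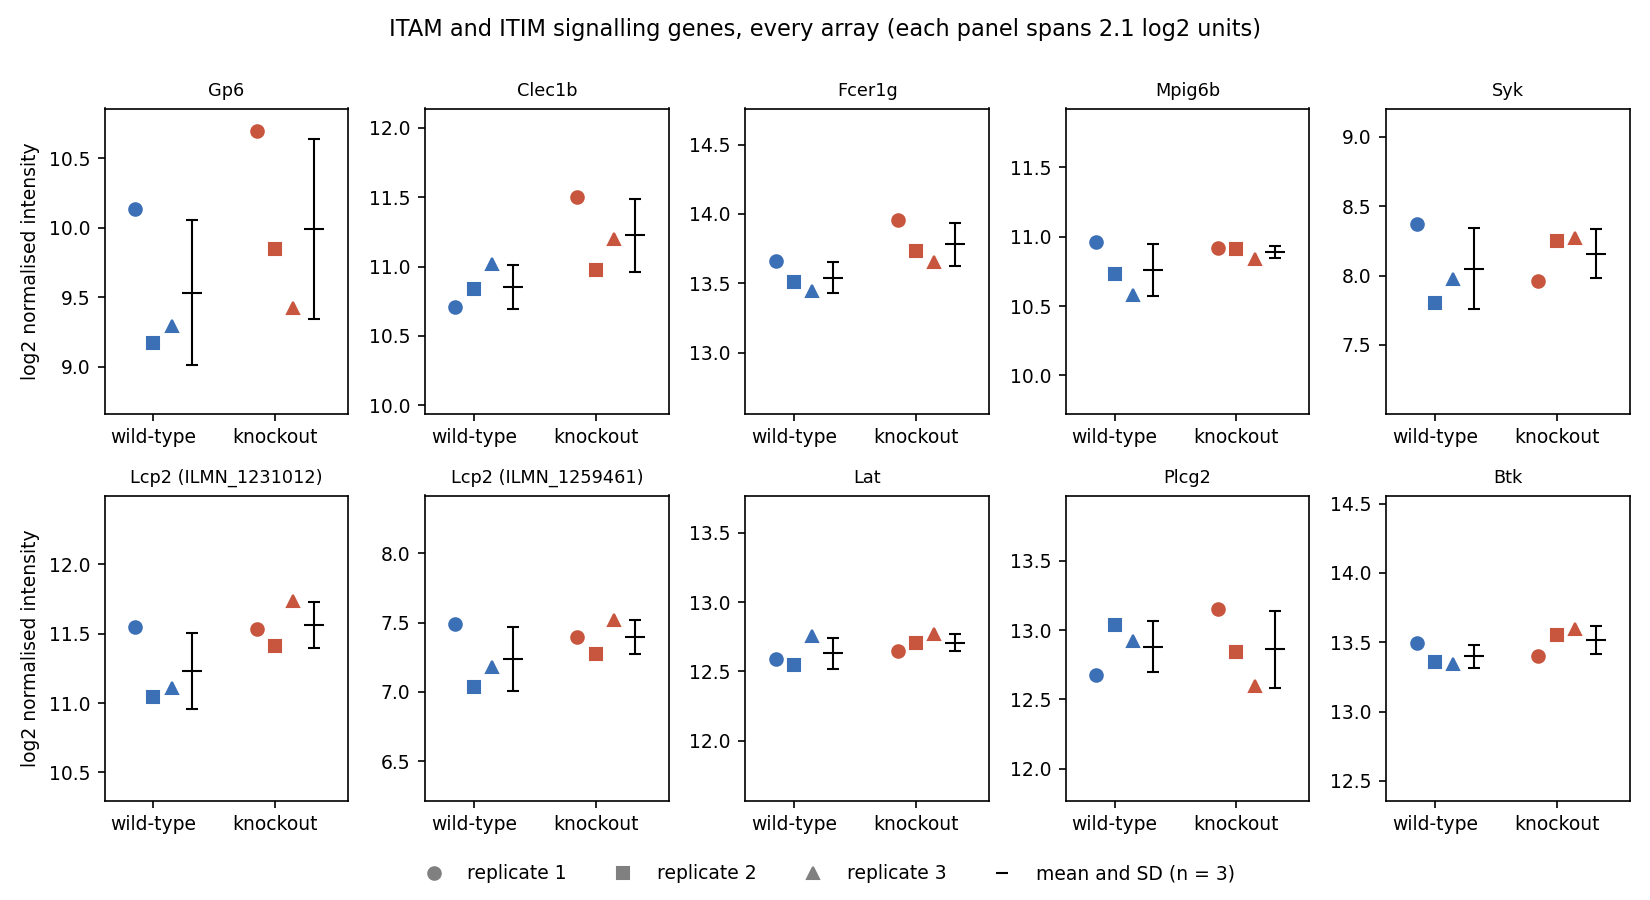
Log2 normalised intensity (vertical axis) of the 10 tested probes on each array, wild-type in blue and knockout in red, with a marker shape for each replicate and the mean and SD (n = 3) in black; every panel has the same height in log2 units. The groups overlap in each panel, and Gp6 has the widest spread, from 9.17 to 10.70.

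Of the kinases, Syk docks on phosphorylated ITAMs through its SH2 domains. Its probe read 8.37, 7.80 and 7.98 in the wild-type and 7.96, 8.25 and 8.27 in the knockout. The highest array of the 6 was wild-type and the next lowest after wild-type replicate 2 was a knockout array. The difference was 0.11 (SE 0.19, 95% interval -0.32 to 0.54, limma adjusted p = 0.81). It turned to -0.014 without wild-type replicate 2 and to -0.21 without wild-type replicates 2 and 3.

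Btk, the Tec family kinase that acts on phospholipase C gamma, varied little between arrays. It read 13.49, 13.36 and 13.34 in the wild-type and 13.40, 13.55 and 13.60 in the knockout. Wild-type replicate 1 lay above knockout replicate 1, and the 6 arrays spanned 0.26 log2 units. The difference of 0.12 (SE 0.13, limma adjusted p = 0.70) had a 95% interval of -0.19 to 0.43, and it was 0.026 without wild-type replicates 2 and 3.

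Of the adaptors, Lcp2, which encodes SLP-76, was measured by 2 probes that agreed in direction. The brighter, ILMN_1231012, read 11.55, 11.04 and 11.11 in the wild-type and 11.53, 11.41 and 11.74 in the knockout. Wild-type replicate 1 lay among the knockout arrays, with the other wild-type arrays below all of them. Its difference was 0.33 (SE 0.18, 95% interval -0.091 to 0.75, limma adjusted p = 0.43).

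The dimmer Lcp2 probe, ILMN_1259461, read 7.49, 7.04 and 7.18 against 7.39, 7.27 and 7.52, a difference of 0.16 (SE 0.16, limma adjusted p = 0.67). The same array, wild-type replicate 1, stood out from its group. Without wild-type replicates 2 and 3 the brighter probe differed by 0.017 and the dimmer by -0.099. With array weights, which put 5.91 on wild-type replicate 2 and 0.320 on wild-type replicate 1, the brighter probe passed (0.47, adjusted p = 0.039) in a fit where 20.8% of all tested probes passed.

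Lat, the membrane adaptor that gathers the complex, had the narrowest spread of the module. It read 12.59, 12.55 and 12.75 in the wild-type and 12.65, 12.70 and 12.77 in the knockout. All 6 arrays lay within 0.22 log2 units, and the pooled SD of 0.089 was at or above that of only 5.92% of tested probes. The difference of 0.076 (SE 0.13, 95% interval -0.23 to 0.39, limma adjusted p = 0.81) corresponds to 1.05-fold, with an interval of 0.851-fold to 1.31-fold. It ran from 0.036 without wild-type replicate 2 to 0.14 without wild-type replicate 3.

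Plcg2 encodes phospholipase C gamma 2, the enzyme at the end of the module that makes the second messengers for calcium release and protein kinase C. It was the only gene of the 9 with a lower mean in the knockout. The arrays read 12.68, 13.04 and 12.92 in the wild-type and 13.15, 12.84 and 12.60 in the knockout, so the highest and the lowest of the 6 were both knockout arrays. The difference was -0.016 (SE 0.18, 95% interval -0.45 to 0.41, limma adjusted p = 0.98). Its sign changed with single arrays left out, over -0.16 to 0.12.

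**Figure D2:**
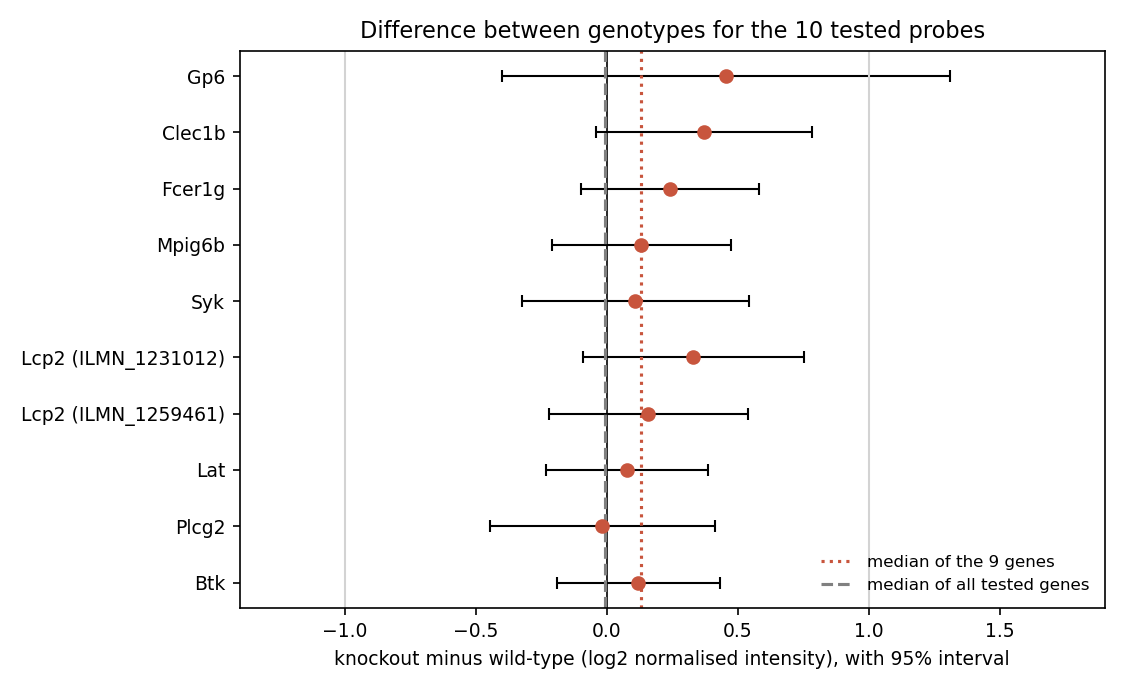
Knockout minus wild-type difference in log2 normalised intensity (horizontal axis) for each tested probe, as a point with its 95% interval from limma, the median of the 9 genes as a dotted line and that of all tested genes as a dashed line. Every interval includes 0, and of the 10 only that of Gp6 extends past 1, the light line for a doubling.

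For the 9 tested probes other than Gp6 the intervals ran from 0.734-fold at the lowest to 1.72-fold at the highest. In the fit of all arrays a doubling or halving of these transcripts was therefore outside each interval. Intervals were not worked out for the fits with arrays left out, so the exclusion does not extend to those fits. Shifts inside a probe's own interval could not be told from 0 with 3 arrays a group, and a p above the threshold does not show that the levels were equal. In the authors' deposited processed values the differences had the same signs, from -0.016 for Plcg2 to 0.35 for Gp6.

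Across arrays the module did not move as one block. Wild-type replicates 2 and 3 were the lowest pair of arrays for 5 of the 9 genes, namely Gp6, Fcer1g, Mpig6b, Lcp2 and Btk. Over all tested genes the same held for 20.7%. On wild-type replicate 2 only 1 of the 9 genes, Plcg2, lay above its own mean over the 6 arrays, and on wild-type replicate 3 there were 2, Lat and Plcg2. The median deviation was -0.15 and -0.13 on these arrays, 0.034 on wild-type replicate 1, and 0.14, 0.075 and 0.10 on knockout replicates 1 to 3. Clec1b differed from that pattern, with its lowest value on wild-type replicate 1.

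**Figure D3:**
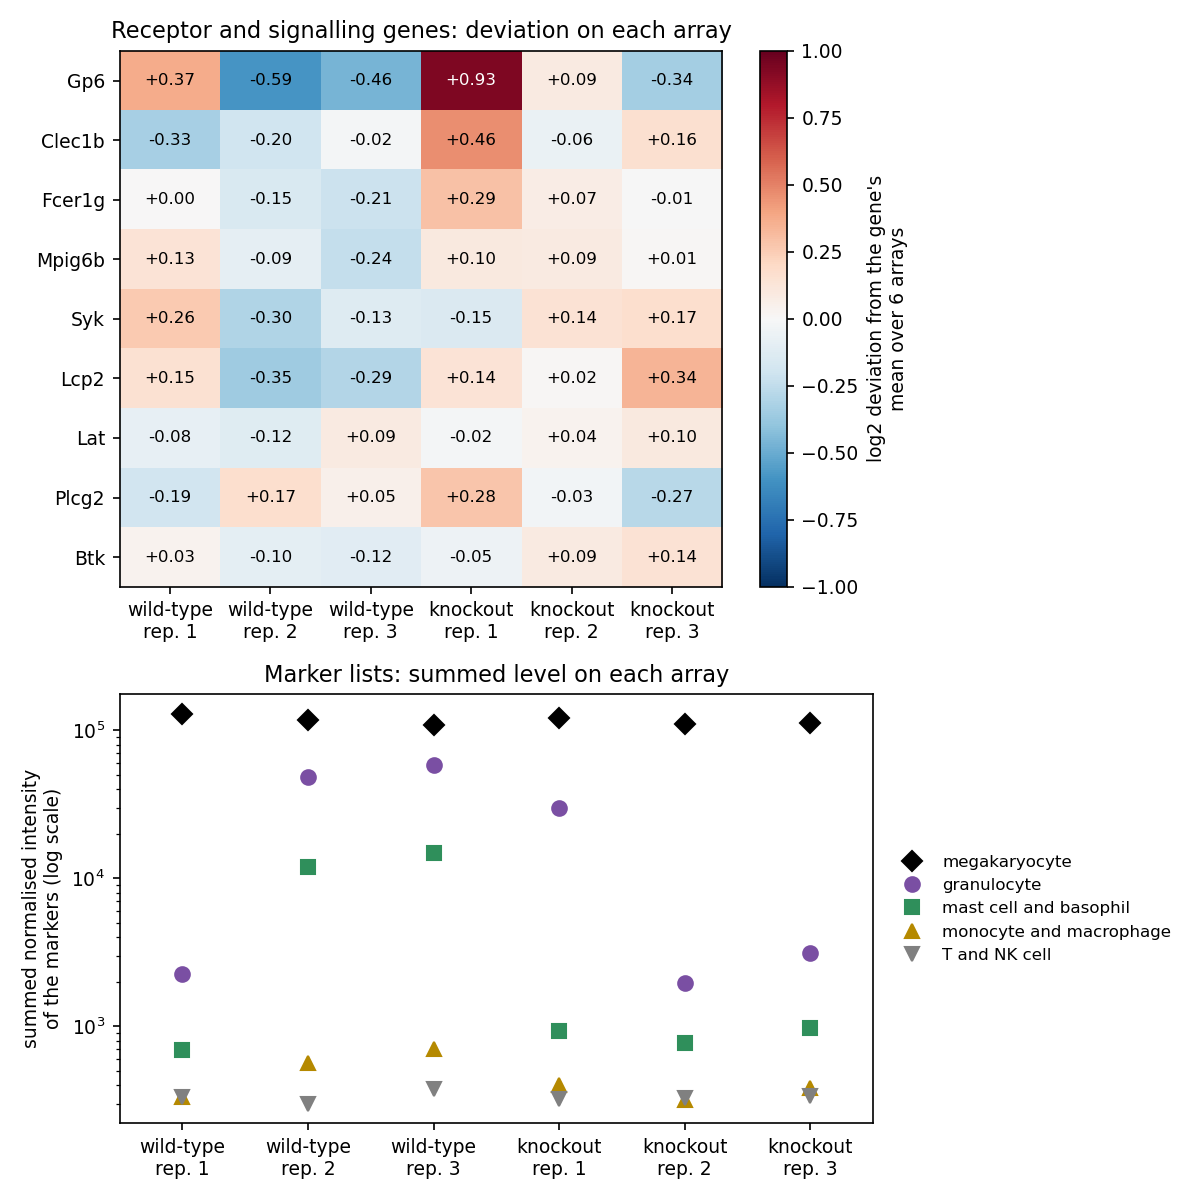
Upper panel, log2 deviation of each gene from its mean over the 6 arrays (colour and printed value); lower panel, summed normalised intensity of the markers of 5 lists on each array (log axis). Gp6, Fcer1g, Mpig6b, Lcp2 and Btk are lowest on wild-type replicates 2 and 3, where the mast cell and basophil sum is 12043 and 14924 against at most 980 elsewhere. The megakaryocyte sum lies between 108224 and 129674. Of its single markers, not drawn, Itga2b, Itgb3, Gp9, Gp1bb, Gp5 and Pf4 are also lowest on wild-type replicates 2 and 3, and the rest, Ppbp among them, are not.

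The plot of deviations and marker sums sets both patterns side by side, and the part of the other cell types in the genotype differences was not tested. Within the module the closest pair over the 6 arrays was Gp6 and Fcer1g, partners in 1 receptor (Pearson r = 0.91). Next came Syk with Btk (0.84) and Lcp2 with Btk (0.81). The most opposed were Syk with Plcg2 (-0.85) and Btk with Plcg2 (-0.77). Of the 36 pairs 27 were above 0. These values describe 6 arrays that share the genotype split and the differences in markers of other cell types, and have no test.

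Over all 6868 other tested genes, the profile most like that of Gp6 belonged to C1qtnf6 (Pearson r = 0.99), Atp6v1d (0.98) and Phlda3 (0.98). For Clec1b the nearest were Vps11 (0.99), Tmem167b (0.98) and Bend3 (0.96). For Fcer1g they were Sec13 (0.996), Spg20 (0.996) and Abhd11 (0.995). With 6 arrays and this many genes searched, such values describe likeness alone.

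Beyond the module, 50 genes of the same pathway were listed, of which 48 had a probe and 35 were tested. None of the 35 passed limma's test over all probes in either direction. By mean 26 were higher and 9 lower in the knockout, with a median difference of 0.15, beside 49% of all tested genes higher. Ptprj, Skap2 and Ubash3b, among the 26, were detected on 5, 5 and 4 of the 6 arrays. They were tested because 1 group alone met the detection rule. Wild-type replicates 2 and 3 were the lowest pair of arrays for 12 of the 35, against 20.7% of all tested genes. At an unadjusted p under 0.05 there were 4, against 12.9% of all tested genes, and 6 had groups that did not overlap, against 18.2%.

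In the list of activating kinases, phospholipase and adaptors, 13 of 22 genes on the array were tested, 10 higher and 3 lower by mean, and 0 passed. Pik3cb, the phosphoinositide 3-kinase beta catalytic subunit, read 11.91, 11.72 and 11.77 against 12.12, 12.23 and 12.06. The knockout arrays all lay above the wild-type ones, by 0.34 on average (SE 0.13, limma adjusted p = 0.35). Ptprj, the receptor phosphatase CD148 that releases Src kinases from inhibition, differed by 0.78 (SE 0.32, limma adjusted p = 0.35) with overlap of the groups. It read 6.58, 5.98 and 5.76 in the wild-type and 7.29, 6.22 and 7.16 in the knockout. It was detected on 5 of the 6 arrays, so only 1 group met the detection rule for testing. Vav3, an exchange factor for Rac, differed by 0.35 (SE 0.17, limma adjusted p = 0.40). The other 9 genes were too dim to test.

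Of 12 second messenger and Rap1 genes on the array 10 were tested, 9 higher and 1 lower by mean, and 0 passed. Prkca, protein kinase C alpha, read 10.36, 9.96 and 9.63 in the wild-type and 10.37, 10.69 and 10.70 in the knockout. Its groups were apart, though wild-type replicate 1 lay next to knockout replicate 1 (difference of means 0.60, SE 0.21, limma adjusted p = 0.33). Stim1, the calcium sensor of the endoplasmic reticulum, differed by 0.67 (SE 0.29, limma adjusted p = 0.37), and was lowest on wild-type replicates 2 and 3 (10.23 and 9.82, against 11.04 in replicate 1). Prkcq, protein kinase C theta, differed by 0.43 (SE 0.20, limma adjusted p = 0.39).

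Of 14 ITIM receptors and inhibitors 12 were tested, 7 higher and 5 lower by mean, and 0 passed. Cblb, a ubiquitin ligase that restrains tyrosine kinase signalling, read 7.47, 7.81 and 7.48 in the wild-type and 6.35, 6.89 and 7.37 in the knockout. All knockout arrays lay below, with a difference of -0.72 (SE 0.26, limma adjusted p = 0.33). Ptpn11, the phosphatase SHP2 that docks on ITIMs, differed by 0.33 (SE 0.14, limma adjusted p = 0.36) by its brightest probe, but a dimmer probe, ILMN_2723559, differed by -0.76 (SE 0.29, limma adjusted p = 0.35), so its probes disagreed in sign. Pecam1, an ITIM receptor of platelets, differed by 0.38 (SE 0.20, limma adjusted p = 0.42).

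**Figure D4:**
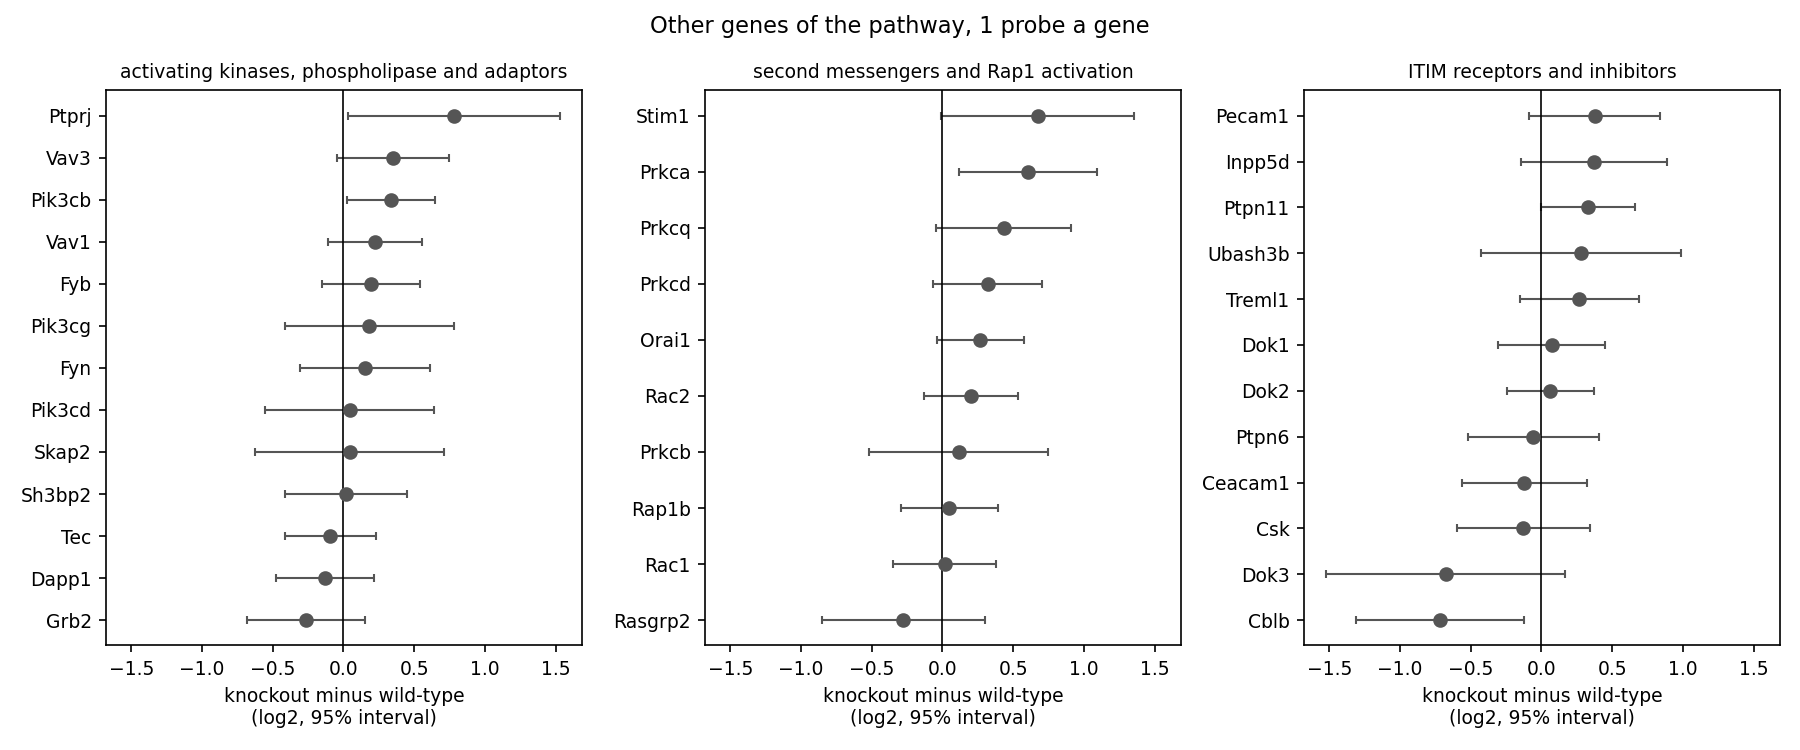
Knockout minus wild-type difference in log2 normalised intensity (horizontal axes) of the 35 tested pathway genes, 1 probe a gene, with 95% intervals from limma, in the 3 lists. Prkca, Pik3cb and Ptprj have intervals above 0 and Cblb one below 0 before any adjustment, and none passed after it. Ptprj was detected on 5 of the 6 arrays.

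**Figure D5:**
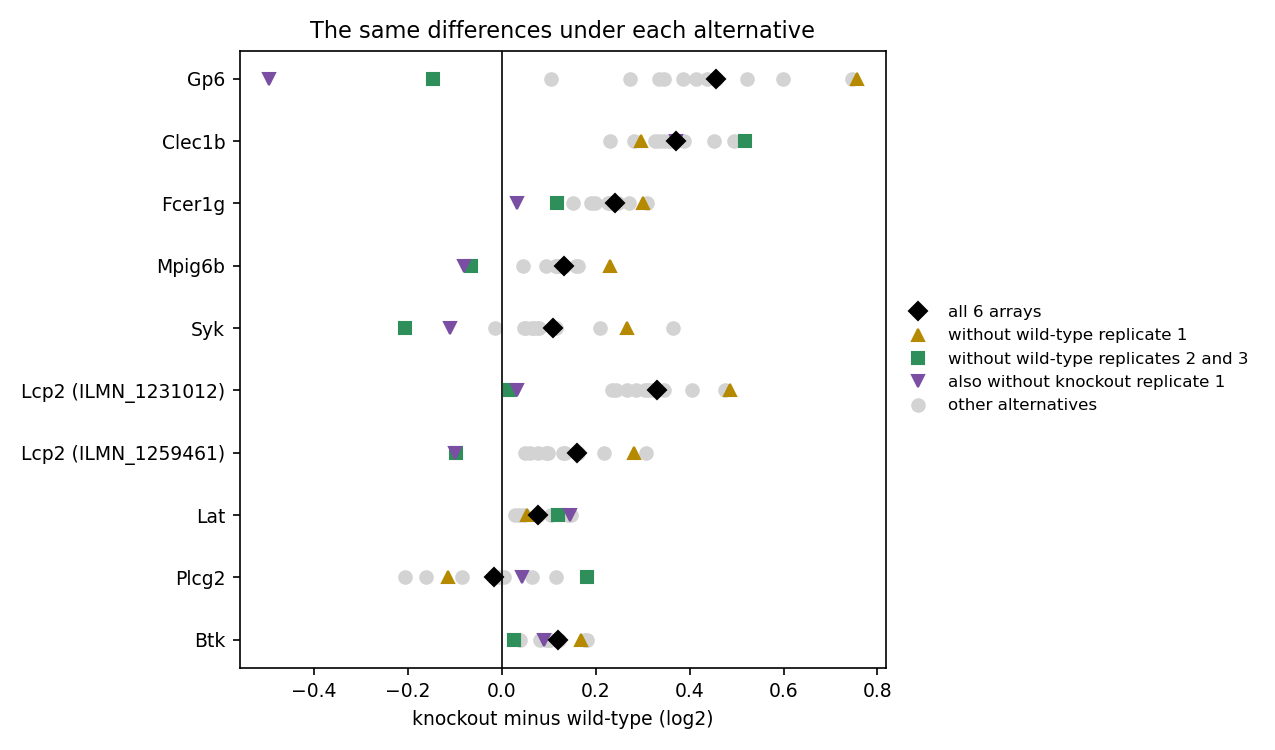
Knockout minus wild-type difference (horizontal axis, log2) of each tested probe with all arrays (diamonds), without wild-type replicate 1, without wild-type replicates 2 and 3, also without knockout replicate 1, and under the other alternatives (grey). Gp6 moves from 0.46 to -0.15 without wild-type replicates 2 and 3, while Clec1b, Fcer1g, Lat, Btk and the brighter Lcp2 probe keep their sign in all 17 alternatives. Those that change only the filter, the replicate block or the variance model cannot move a difference.

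The plot of differences by setting shows how far each gene rested on single arrays. Without wild-type replicate 1 the Mpig6b difference was 0.23, that of Syk 0.27 and that of the brighter Lcp2 probe 0.49. None passed, in a fit where 8.55% of all tested probes passed. In that fit the median of the 9 genes was 0.27. Without wild-type replicates 2 and 3 it was 0.026. Those 2 fits compare the same knockout arrays with different wild-type arrays.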

How the data were processed

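The raw table deposited by the authors lists linear intensity, bead standard error, bead number and detection p-value per probe and array, per the file headers. A second table deposited by the authors holds processed values on a log2-like scale (median 8.22); the transform is not given in the sources used here. BeadStudio 3.2 and lumi are named in the submitters' processing notes without roles. Using R 4.3.3 and limma 3.58.1, intensities underwent normexp correction with control levels inferred from detection p (offset 16), quantile normalisation and log2 conversion. Probes with detection p under 0.05 on all arrays of a group were tested (9403 of 24611; 9801 to 10364 detected an array). limma with eBayes compared genotypes, two-sided, adjusted by Benjamini-Hochberg over all tested probes; the fit was tested on simulated data. A gene's brightest tested probe stands for it in counts. Symbols came from the platform annotation; 0 changed on matching to the gene table of GRCm38.p6. 

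The 10 genes, the pathway and marker lists and the alternatives were chosen with earlier results of these data known. Named genes were every probe of the 10, Srf, any passing and the 3 lowest-p genes of each pathway list, the 3 most correlated genes for Gp6, Clec1b and Fcer1g, and up to 3 widest-ranging genes of each marker list. Outside this rule, Fcer1a, Ms4a2, Skap2, Ubash3b, undetected markers and the further megakaryocyte and granulocyte markers were named after their values were seen. Cnn2, Coro1a and Flna were named for the CArG box search alone. Alternatives covered background correction, scaling, the authors' values, filters, the replicate block, variance model, array weights and arrays left out.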

Additional observations from a re-analysis of the deposited data

How the results depend on the processing

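No tested probe of the module passed under 16 of the 17 alternatives, and 1, the brighter Lcp2 probe, passed with array weights, where 1955 of all tested probes passed and the module's median was 0.23. The count over all probes, 15 as reported, was 9 with no filter and 7 to 839 with 1 array left out, highest without wild-type replicate 1. The replicate block gave 6 calls over all probes and 0 in the module. With the block the Gp6 difference stayed 0.46, with an SE of 0.18 (limma adjusted p = 0.42). Nothing in the labels pairs same-numbered arrays, so the numbers were not taken as pairs. The deviations of same-numbered arrays had correlations of -0.27, -0.13 and -0.089. With 3 arrays a group these values cannot decide whether the numbers were pairs. The module's median ran from 0.12 to 0.27 with 1 array left out, and was 0.026 without wild-type replicates 2 and 3 and 0.032 when knockout replicate 1 was left out too. In that pair of fits, in order, these turned sign: Gp6 (-0.15 and -0.50), Mpig6b (-0.067 and -0.080), Syk (-0.21 and -0.11), the dimmer Lcp2 probe (-0.099 and -0.0997) and Plcg2 (0.18 and 0.043); they leave 1 wild-type array, assumed to vary like the knockout arrays. With 1 array left out Gp6 ran from 0.10 to 0.76, the dimmer Lcp2 probe from 0.060 to 0.28, Mpig6b from 0.045 to 0.23, Syk from -0.014 to 0.27 and Plcg2 from -0.16 to 0.12, with 0.064 without wild-type replicate 2 and 0.0053 without wild-type replicate 3. The cause was not tested. The 0 of 35 pathway genes stayed 0 (of 48) with no filter. Without background correction the Syk difference was 0.065 and that of the dimmer Lcp2 probe 0.076, and in the authors' processed values they were 0.047 and 0.050. With scaling to the 75th percentile Lat differed by 0.028 and Btk by 0.038.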
